A study of Mus musculus with 6 samples.

Results

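The genes described here are 10 transcription factors of the somites and of the earliest skeletal muscle, namely Meox1, Meox2, Tcf15, Foxc1, Foxc2, Tbx18, Pax1, Pax9, Pax3 and Myf5. They were chosen by name from a total of 18193 genes on the array, and all 10 were measured. Expression was profiled in whole mouse embryos at embryonic day 8.5, of mixed sex and a mixed C57BL6/129 background, on 6 single-colour Affymetrix arrays. Of these, 3 arrays came from embryos of genotype Fz2-/-; Fz7-/-, called the double knockout, and 3 from embryos of genotype Fz2+/+; Fz7-/-, called the single knockout. Both groups lacked Fz7, so the comparison shows what was seen when Fz2 was lost as well, and embryos with an intact Fz7 were not analysed here. Fz2 and Fz7 (gene symbols Fzd2 and Fzd7) are Frizzled receptors, which bind Wnt ligands at the cell surface. Pooling of embryos, litter and the construction of the alleles are not stated in the labels, so every p-value reflects array-to-array spread that may in part be technical.

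Somites are blocks of paraxial mesoderm that form in pairs on either side of the neural tube, one after another from head to tail. The ventral part of each somite becomes the sclerotome, which builds vertebrae and ribs, and the dorsal part becomes the dermomyotome, which gives rise to skeletal muscle and dermis. Wnt signals from the neural tube and the overlying ectoderm are known to promote the dermomyotome and the onset of Myf5, while Hedgehog signals from the notochord promote the sclerotome. In a whole embryo, fewer cells of a type and less RNA per cell cannot be told apart.

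The promoters of the factors with the largest differences, Myf5 and Meox2, are shown with that of Foxc1, a factor with a small difference, so that they can be set beside their values. RefSeq windows on GRCm38.p6 were at hand for 6 of the 10 factors (Pax1, Tbx18, Myf5, Meox2, Pax9 and Foxc1). Each window runs from 250 bases before to 30 bases after the annotated transcript start and is written 5′ to 3′ on the strand of the gene. Capitals mark matches on either strand to CTTTGA or CTTTGT, the core letters recognised by the TCF/LEF factors of the Wnt pathway, and to TATAAA, the core of the TATA box. The windows are chr10:107486105-107486384 on the minus strand for Myf5, chr12:37108290-37108569 on the plus strand for Meox2 and chr13:31806396-31806675 on the plus strand for Foxc1.
Myf5: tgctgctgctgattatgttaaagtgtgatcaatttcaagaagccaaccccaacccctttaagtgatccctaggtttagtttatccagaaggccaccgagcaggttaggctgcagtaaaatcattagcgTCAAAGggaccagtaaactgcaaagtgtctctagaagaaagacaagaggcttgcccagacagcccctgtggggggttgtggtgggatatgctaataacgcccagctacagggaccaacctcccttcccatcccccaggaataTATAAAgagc
Meox2: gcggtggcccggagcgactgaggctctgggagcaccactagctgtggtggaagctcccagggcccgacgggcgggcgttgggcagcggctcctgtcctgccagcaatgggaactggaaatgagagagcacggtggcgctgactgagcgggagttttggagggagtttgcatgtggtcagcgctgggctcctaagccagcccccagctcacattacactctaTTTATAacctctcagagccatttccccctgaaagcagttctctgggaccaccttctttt
Foxc1: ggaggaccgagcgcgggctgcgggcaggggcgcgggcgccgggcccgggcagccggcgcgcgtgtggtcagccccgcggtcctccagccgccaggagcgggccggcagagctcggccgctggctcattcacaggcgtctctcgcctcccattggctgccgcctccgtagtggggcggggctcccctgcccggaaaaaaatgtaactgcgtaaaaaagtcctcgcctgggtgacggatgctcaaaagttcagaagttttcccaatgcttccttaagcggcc
The Myf5 window held 1 TCF/LEF match, TCAAAG, which starts at position -122 from the annotated start and is CTTTGA on the opposite strand. It also held TATAAA at position 21 after that start. The Meox2 window held TTTATA, the reverse complement of TATAAA, at position -29. No capital motif was in the Foxc1 window, nor in those of Pax1, Tbx18 and Pax9. Of all 32851 mouse windows of this length in the table, 29.9% held either TCF/LEF form and 13.1% held the TATA core, so such matches are common. The E-box CANNTG, which reads the same on both strands and is bound by bHLH factors such as Myf5 and Tcf15, was in 70.1% of all windows. It occurred once each in the windows of Meox2 and Tbx18, at 2 positions in that of Pax9 and not in those of Myf5, Foxc1 and Pax1. No E-box overlapped a capital motif in these windows.

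Values are log2 RMA (robust multi-array average) values as deposited, on which 1 unit is a doubling, and a level can be compared between arrays but not between genes. Each gene is represented by its probe set of highest mean level, and differences are double knockout minus single knockout. Fzd2 itself was at 7.30, 7.69 and 7.63 in the double knockout arrays, against 9.86, 9.99 and 10.01 in the single knockout. It was the only one of 18193 genes past the limma threshold of adjusted p 0.05, a share of 0.00550%. Double knockout replicate 1 stood apart, with a correlation of 0.986 to 0.990 with the other 5 arrays across genes, against 0.997 to 0.998 among those 5. Differences are therefore given with and without it.

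All 10 factors had a mean below the single knockout in the double knockout, but 0 of 10 passed the limma test over all genes, where the share called was 0.00550%. The muscle determination gene Myf5 and the homeobox gene Meox2 lay farthest below, at 42.0% and 41.7% of the single knockout level. Meox1, Pax1 and Tbx18 lay at 66.8%, 62.7% and 66.7%, Pax3 at 74.5%, and Tcf15, Foxc1, Pax9 and Foxc2 at 91.0% to 99.3%. A difference below 0 was seen for 53.8% of all genes, and the median difference was -0.50 over the factors and -0.01 over all genes. Of the factors, 3 had groups that did not overlap (Meox1, Tcf15 and Myf5, all lower), where 6.60% of all genes were lower without overlap. An unadjusted p under 0.05 with a lower level was found for 3 of 10 (Meox1, Pax1 and Myf5), and for 3.00% of all genes. Of the lists described below, dorsal neural tube and neural crest had 3 of 11 such genes. Presomitic mesoderm had 3 of 18, and other somite and early muscle genes 1 of 18. Each of these lists had 3 genes lower without overlap. The remaining tissue lists had 0 genes with such a p, and 0 or 1 lower without overlap. The factors were chosen with earlier results of these data known, so these counts are a description.

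Without double knockout replicate 1, 9 of 10 factors still lay below the single knockout, as did 53.3% of all genes, and the median of the factors was -0.10. Myf5, Meox2, Meox1 and Pax1 kept differences of -0.79, -0.59, -0.45 and -0.40. The other 6 lay between -0.10 and 0.03, among them Pax3 at -0.06 and Tbx18 at -0.04. Groups did not overlap for 4 factors in this setting (Meox1, Tcf15, Pax9 and Myf5), against 12.3% of all genes lower without overlap. The dimmer Pax9 probe sets went the other way. No factor passed the limma threshold here either, where the share of genes called was again 0.00550%.

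**Figure D1:**
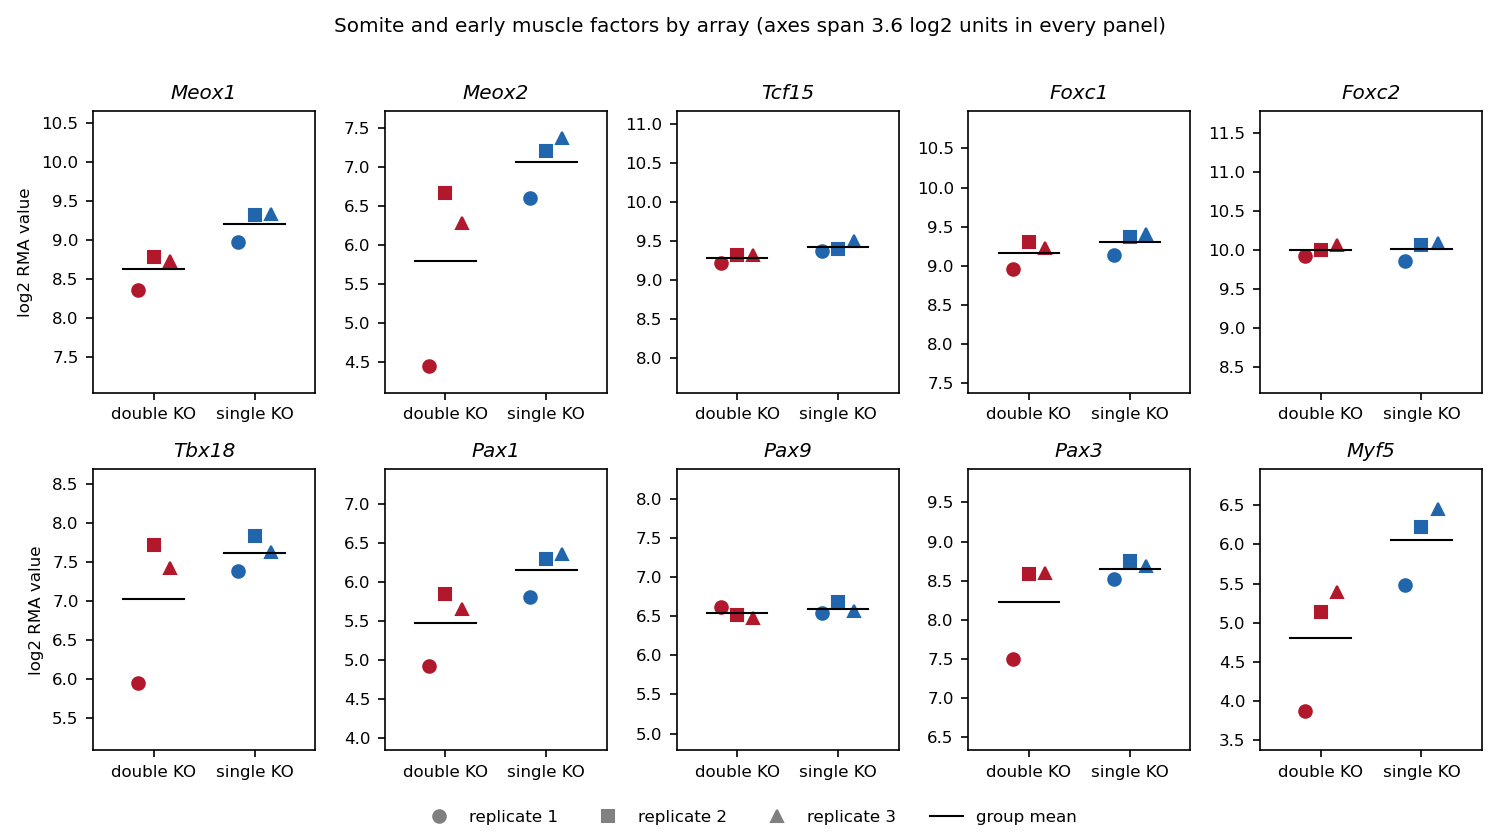
Log2 RMA value (vertical axis) of each factor on each array, with double knockout arrays in red on the left and single knockout arrays in blue on the right of each panel. Symbols give the replicate number, lines the group means, and each axis spans the same number of log2 units. Double knockout replicate 1 is the lowest of the 6 arrays for 8 of the 10 factors.

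**Figure D2:**
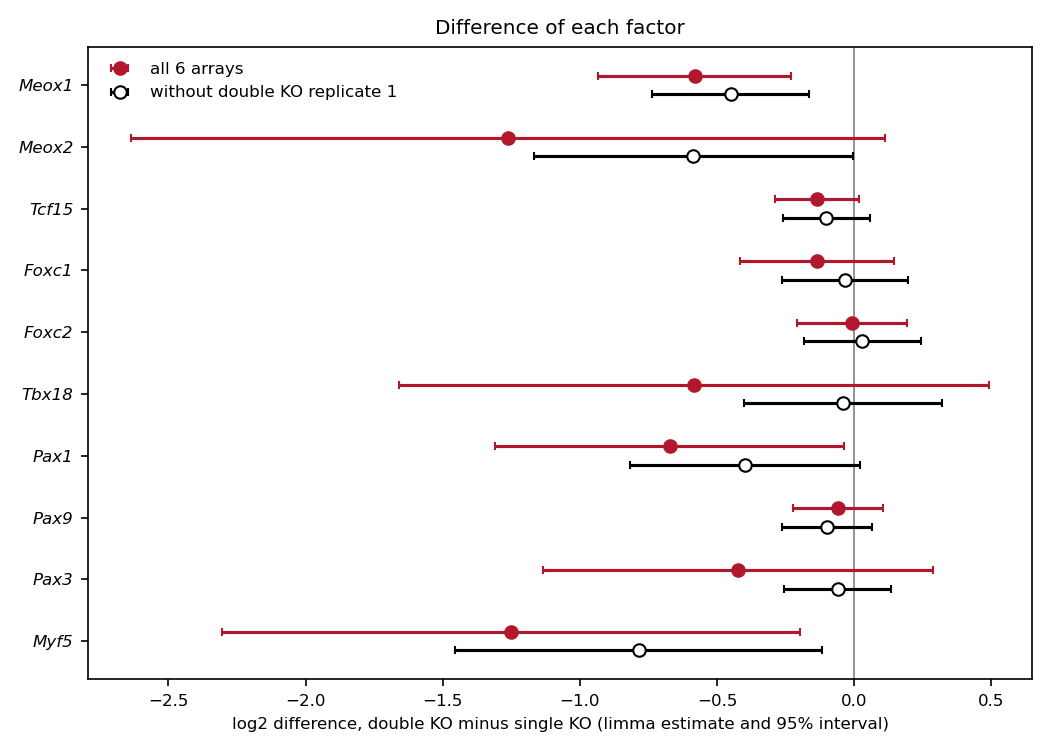
Log2 difference, double knockout minus single knockout, of each factor with its 95% interval from limma, with all 6 arrays (red) and without double knockout replicate 1 (open). Myf5, Meox2, Meox1 and Pax1 lie at -0.79, -0.59, -0.45 and -0.40 in the second setting, while Pax3 and Tbx18 lie at -0.06 and -0.04.

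Meox1, Meox2 and Tcf15 are expressed throughout the newly formed somite. Meox1 and its paralog Meox2 are homeodomain factors that together are needed for somite patterning and for the axial skeleton and trunk muscles. In the order of replicates 1 to 3, used for all values, Meox1 was at 8.37, 8.78 and 8.74 in the double knockout, against 8.98, 9.32 and 9.33 in the single knockout. All double knockout arrays lay below all single knockout arrays, with 0.20 between the nearest of them. The difference was -0.58 (SE 0.15, 95% interval -0.93 to -0.23, n = 3 per group, limma adjusted p = 0.872), and the unadjusted limma p of 0.00623 was the 82nd smallest of all genes. The exact permutation test (two-sided, 3 against 3 values) gave p = 0.1, its smallest possible value. Without double knockout replicate 1 the difference was -0.45 (95% interval -0.74 to -0.17, limma adjusted p = 0.701). Meox1 was thus the factor with the smallest unadjusted p, at a difference of less than 1 log2 unit.

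Meox2 read 4.45, 6.67 and 6.28 in the double knockout, against 6.60, 7.21 and 7.37 in the single knockout. Double knockout replicate 1 was the lowest by far, and replicate 2 lay just above single knockout replicate 1, so that the groups overlapped. The difference was -1.26 (SE 0.57, 95% interval -2.64 to 0.11, limma adjusted p = 0.872, exact permutation p = 0.2). Without double knockout replicate 1 it was -0.59 (95% interval -1.17 to -0.01, limma adjusted p = 0.743). The second Meox2 probe set read 3.63, 5.29 and 4.97 in the double knockout and 5.33, 5.63 and 5.58 in the single knockout. On it the groups did not overlap, with a difference of -0.89, or -0.39 without double knockout replicate 1. Both probe sets thus placed Meox2 lower, by unequal amounts.

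Tcf15, also called paraxis, encodes a bHLH factor needed for somites to become epithelial. It read 9.22, 9.31 and 9.32 in the double knockout, against 9.36, 9.40 and 9.50 in the single knockout. The groups did not overlap, but only 0.04 separated the nearest arrays. The difference was -0.14 (SE 0.06, 95% interval -0.29 to 0.02, limma adjusted p = 0.872), or -0.10 without double knockout replicate 1. Its values spanned a narrower range than those of Meox1 or Meox2. Whether the difference of Tcf15 was smaller than that of the Meox genes was not tested.

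Foxc1 and Foxc2 encode forkhead factors of the paraxial mesoderm that act redundantly in somite formation and also in vessels, heart and kidney. Foxc1 read 8.95, 9.30 and 9.22 in the double knockout, against 9.13, 9.36 and 9.40 in the single knockout. The groups overlapped, and the difference was -0.14 (SE 0.12, 95% interval -0.42 to 0.14, limma adjusted p = 0.877). A second Foxc1 probe set gave -0.14 as well, or -0.01 without double knockout replicate 1. Foxc2 read 9.92, 10.002 and 10.07 in the double knockout, against 9.86, 10.07 and 10.09 in the single knockout. Its arrays were interleaved, with a difference of -0.01 (SE 0.08, 95% interval -0.21 to 0.19, limma adjusted p = 0.987). Without double knockout replicate 1, Foxc1 differed by -0.03 and Foxc2 by 0.03. Foxc2 was the factor whose group means lay closest, and in double knockout replicate 1 it differed from the single knockout mean by -0.09, against -2.61 for Meox2 and -2.18 for Myf5.

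Tbx18 encodes a T-box factor of the anterior compartment of each somite, where it keeps the anterior and posterior compartments apart, and is also expressed in the proepicardium and sinus venosus. It read 5.95, 7.72 and 7.43 in the double knockout, against 7.39, 7.84 and 7.63 in the single knockout. Only double knockout replicate 1 lay below all single knockout arrays. The difference was -0.58 (SE 0.45, 95% interval -1.66 to 0.49, limma adjusted p = 0.872), and -0.04 (95% interval -0.40 to 0.32) without that array. The other Tbx18 probe set differed by -0.36, or 0.05 without it. The lower mean of Tbx18 thus came from 1 array on both probe sets.

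Pax1 and Pax9 are paired-box genes of the sclerotome, where they act together in vertebral column formation, and both are also expressed in the pharyngeal pouches. Pax1 read 4.93, 5.85 and 5.66 in the double knockout, against 5.81, 6.29 and 6.36 in the single knockout. The groups overlapped by 0.04, through double knockout replicate 2 and single knockout replicate 1. The difference was -0.67 (SE 0.26, 95% interval -1.31 to -0.04, limma adjusted p = 0.872, exact permutation p = 0.2), or -0.40 without double knockout replicate 1. A dimmer Pax1 probe set did not share it, with 5.34, 5.19 and 4.85 in the double knockout and 4.95, 4.96 and 4.89 in the single knockout. Its difference was 0.20, or 0.09 without double knockout replicate 1. The Pax1 result therefore depends on which probe set is read.

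Pax9 read 6.62, 6.51 and 6.48 in the double knockout, against 6.54, 6.69 and 6.57 in the single knockout. Its groups overlapped and double knockout replicate 1 was the highest of the 3 double knockout arrays. The difference was -0.06 (SE 0.07, 95% interval -0.22 to 0.11, limma adjusted p = 0.901), and -0.10 without double knockout replicate 1. The dimmer Pax9 probe sets differed by 0.08 and 0.32, or 0.12 and 0.37 without that array, the opposite direction, and did not pass in a fit of every probe set (limma adjusted p = 0.920 for both). On the probe set at 0.08 every double knockout array lay above every single knockout array, although the nearest values were 4.482 and 4.480.

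Pax3 marks the dermomyotome and the muscle progenitors that leave it, and is also expressed in the dorsal neural tube and neural crest. It read 7.50, 8.58 and 8.60 in the double knockout, against 8.53, 8.75 and 8.69 in the single knockout. Double knockout replicate 1 lay more than 1 log2 unit below every other array, whereas replicates 2 and 3 differed from the single knockout mean by -0.07 and -0.05. The difference was -0.42 (SE 0.30, 95% interval -1.13 to 0.29, limma adjusted p = 0.872), and -0.06 (95% interval -0.26 to 0.13) without replicate 1. The other Pax3 probe sets agreed in direction, with differences of -0.43 and -0.37, or -0.11 and -0.10 without replicate 1.

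Myf5 is the first of the myogenic regulatory factors to be switched on in mouse somites and commits cells to skeletal muscle. It read 3.87, 5.14 and 5.40 in the double knockout, against 5.49, 6.22 and 6.45 in the single knockout. All double knockout arrays lay below all single knockout arrays, although only 0.09 separated double knockout replicate 3 from single knockout replicate 1. The difference was -1.25 (SE 0.44, 95% interval -2.30 to -0.20, limma adjusted p = 0.872, exact permutation p = 0.1). Without double knockout replicate 1 it was -0.79 (SE 0.28, 95% interval -1.45 to -0.12, limma adjusted p = 0.708), or 58.0% of the single knockout level. With all 6 arrays, Myf5 ranked 24th and Meox2 23rd of 18193 genes from the most negative difference. Ranks without double knockout replicate 1 were not computed. Myf5, Meox2, Pax1 and Pax9 had means over the 6 arrays below 7.10, the median of such means over all genes, and RMA compresses differences towards the dim end.

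**Figure D3:**
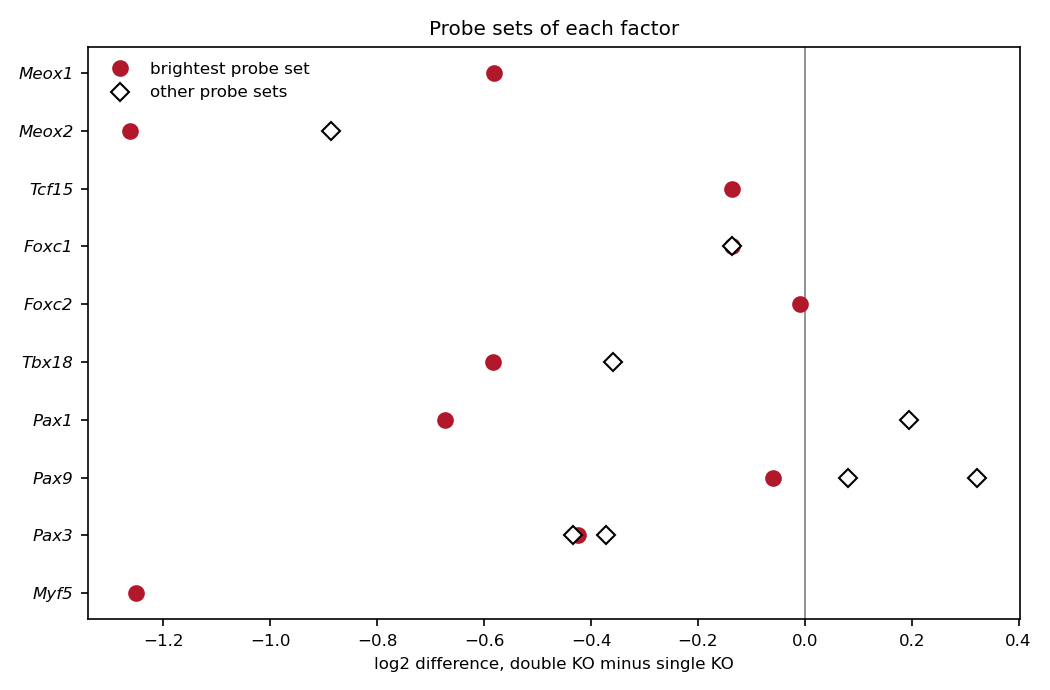
Log2 difference, double knockout minus single knockout, for each of the 18 probe sets of the 10 factors, with the brightest of each gene in red and the others as open diamonds. Of the 18, 15 lie below 0, and the 3 above it belong to Pax1 and Pax9.

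Double knockout replicate 1 was the lowest of the 6 arrays for 8 of 10 factors, all but Pax9 and Foxc2, and for 29.7% of all genes. The factors also varied within the single knockout. Single knockout replicate 1 was the lowest array of its group for 10 of 10 factors, and for 40.4% of all genes. The mean level over the factors was 6.98, 7.79 and 7.72 in double knockout replicates 1 to 3, against 7.77, 8.11 and 8.14 in single knockout replicates 1 to 3. By this mean, double knockout replicates 2 and 3 lay level with single knockout replicate 1 and below the other single knockout arrays. Double knockout replicate 1 lay below all single knockout arrays for 8 of the 10 factors, replicate 2 for 4 and replicate 3 for 6. The same shares over all genes were not computed for single arrays, so these counts have no baseline and only describe the factors. The single knockout values of Myf5 spanned 0.97 and those of Meox2 0.77, wider than those of the other factors.

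Other genes of somites and early muscle had a median difference nearer to 0 than that of the factors, a contrast that was not tested. Of the 18 measured from a list of 21, 0 passed the limma threshold, 11 were lower and 7 higher, with a median of -0.07, or -0.01 without double knockout replicate 1. The later myogenic factor Myod1 read 4.70, 4.72 and 4.79 in the double knockout, against 4.95, 4.93 and 4.85 in the single knockout, and the groups did not overlap. Its difference was -0.17 (SE 0.06, limma adjusted p = 0.872), or -0.15 without double knockout replicate 1. Myog, which acts later in muscle differentiation, differed by -0.27, or -0.25 without that array. Dmrt2, a factor of the dermomyotome, read 5.75, 6.52 and 6.54 in the double knockout, against 6.56, 6.85 and 7.03 in the single knockout. It differed by -0.54, without overlap, and by -0.28 without that array. Uncx, a homeobox gene of the posterior somite, differed by -0.94, more than 8 of the 10 factors, and by -0.26 without double knockout replicate 1. The cartilage and crest factor Sox9 differed by -0.28 and the growth factor receptor gene Pdgfra by 0.12, or by -0.12 and 0.06 without it. Both had groups without overlap with all arrays, Sox9 lower and Pdgfra higher. In this list 3 of 18 genes were lower without overlap and 1 was higher, against 6.60% and 4.85% of all genes. All values of Myod1, Myog, Dmrt2 and Uncx lay below 7.10, the median of mean levels over all genes. The differences of these dim genes, above all Myod1 and Myog, are therefore read with caution.

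The presomitic mesoderm, from which somites segment, was covered by 18 measured genes of a list of 19. None passed the limma threshold, 13 were lower and 5 higher, and the median was -0.05, or -0.07 without double knockout replicate 1. The smallest unadjusted p-values in this list were those of the Notch feedback gene Nrarp and the receptor gene Notch1, with differences of -0.42 (SE 0.08) and -0.24 (SE 0.07), or -0.35 and -0.18 without double knockout replicate 1. Both had groups without overlap with all arrays.

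**Figure D4:**
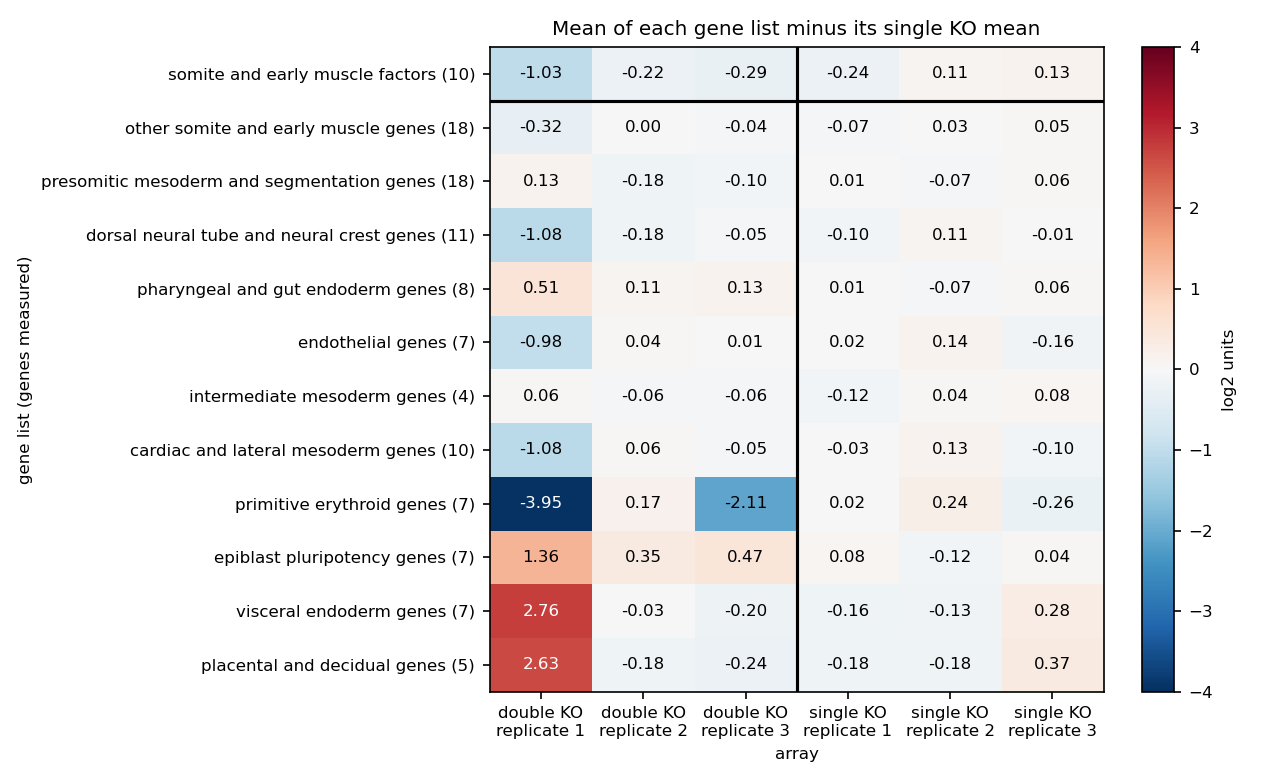
Mean of each gene list on each array minus its mean in the single knockout, in log2 units, with double knockout arrays left of the line and the number of genes measured in parentheses. In double knockout replicate 1 the somite and early muscle factors lie at -1.03, and lists of other tissues lie between -3.95 and 2.76.

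In double knockout replicate 1, markers of some other tissues were lower along with the factors, while those of others were level or higher. The part of these tissues in the result was not tested. Relative to the single knockout mean, the factors lay at -1.03, -0.22 and -0.29 in double knockout replicates 1 to 3. Dorsal neural tube and neural crest genes, a tissue that shares Pax3, lay at -1.08, -0.18 and -0.05, with mean levels of 7.73 to 8.76 in the double knockout and 8.71 to 8.92 in the single knockout. Of these 11 genes 7 were lower, among them Zic1 at -2.45 and the endothelin receptor gene Ednrb at -0.64. With double knockout replicate 1 left out, 5 of 11 were lower, with Zic1 at -1.39 and Ednrb at -0.35. Cardiac and lateral mesoderm genes lay at -1.08, 0.06 and -0.05, with mean levels of 7.999 to 9.14 in the double knockout and 8.98 to 9.20 in the single knockout, and 5 of 10 were lower. The natriuretic peptide gene Nppa and the cardiac factor gene Gata4 differed by -1.70 and 0.26. Without that array 2 of 10 were lower, with Nppa at -0.69 and Gata4 at 0.27. Endothelial genes, a tissue that shares the Foxc genes, lay at -0.98, 0.04 and 0.01, with mean levels of 7.11 to 8.12 in the double knockout and 7.93 to 8.23 in the single knockout. All 7 were lower, with Emcn at -0.90 and Cdh5 at -0.52, but 2 of 7 without that array, with Emcn at -0.25 and Cdh5 at 0.04. Intermediate mesoderm genes lay at 0.06, -0.06 and -0.06, with mean levels of 6.75 to 6.87 and 6.69 to 6.89 in double and single knockout, and 2 of 4 were lower. Pax8 differed by -0.48 and Lhx1 by 0.32 in that list, or by -0.16 and 0.04 without that array, where again 2 of 4 were lower. The other somite and early muscle genes lay at -0.32, -0.0048 and -0.035 in double knockout replicates 1 to 3, and presomitic mesoderm genes at 0.13, -0.18 and -0.10. Single knockout replicate 1 lay at -0.24 for the 10 factors, close to double knockout replicates 2 and 3.

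Primitive erythroid genes lay at -3.95, 0.17 and -2.11 in double knockout replicates 1 to 3, so that replicate 2 did not share their lower level. Their mean levels were 5.48 to 9.60 in the double knockout and 9.17 to 9.66 in the single knockout, with 7 of 7 lower, Klf1 at -1.20 and Gata1 at -0.45. With double knockout replicate 1 left out, again 7 of 7 were lower, with Klf1 at -0.88 and Gata1 at -0.26. Epiblast pluripotency genes, which mark the tissue that precedes gastrulation, were higher on all double knockout arrays, at 1.36, 0.35 and 0.47. Their mean levels were 6.54 to 7.55 in the double knockout and 6.07 to 6.28 in the single knockout, with 7 of 7 higher, also without double knockout replicate 1, and 0 past the limma threshold. Dppa4 differed by 0.23 and Pou5f1 by 2.35, or by 0.19 and 1.09 without double knockout replicate 1. Pharyngeal and gut endoderm genes, a tissue that shares Pax1 and Pax9, lay at 0.51, 0.11 and 0.13, with mean levels of 8.85 to 9.26 and 8.67 to 8.80 in double and single knockout. Of these 8 genes 7 were higher, with Sox17 at 0.47 and Foxa1 at 0.26, and 6 without double knockout replicate 1, with Sox17 at 0.27 and Foxa1 at 0.24.

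Visceral endoderm genes of the yolk sac lay at 2.76, -0.03 and -0.20, with mean levels of 8.63 to 11.60 in the double knockout and 8.68 to 9.12 in the single knockout. All 7 were higher with all arrays, 2 of 7 without double knockout replicate 1, and Apoa2 and Amn differed by 0.81 and 1.01, or by 0.17 and 0.04 without it. Placental and decidual genes lay at 2.63, -0.18 and -0.24, with mean levels of 4.65 to 7.51 and 4.70 to 5.25 in double and single knockout. All 5 were higher, with Prl5a1 at 1.19 and Cts7 at 1.17, and 2 of 5 without that array, with Prl5a1 at 0.05 and Cts7 at -0.08. The higher means of these lists were thus those of double knockout replicate 1, the array lowest of 6 for 8 of 10 factors. RMA values have no zero, so no marker could be read as absent.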

How the data were processed

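RNA from 6 whole-embryo samples was measured on single-colour Affymetrix arrays. The authors deposited log2 values of 45101 probe sets, obtained with RMA per the submitters' processing notes. RMA removes background, equalises the distributions of the arrays and combines the probes of a set. For its version, nothing was given in the sources used here. Array medians were 5.79 to 5.82. The number of arrays limits the precision. Groups and replicate numbers came from the sample titles.

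Probe sets were named through the platform annotation, of which 34945 had 1 symbol, 932 several and 9160 none listed. The first covered 18193 genes and were used. The brightest probe set of each gene was tested in limma 3.58.1 under R 4.3.3 (lmFit, eBayes, two-sided tests). P-values were adjusted by Benjamini-Hochberg over all 18193 genes, with a threshold of 0.05. The approach was tested on simulated data with independent noise on every array. Those data held no outlying array such as double knockout replicate 1, so that case was not tested. Single factors also had an exact permutation test of 3 against 3. Of 110 genes in 11 further lists, 102 were measured. From each list the text names any gene past the threshold and otherwise the 2 of lowest unadjusted p, or 6 for other somite genes. The factors and lists were chosen with earlier results of these data known. Alternatives were a replicate block, other moderation, probe set, filter and scaling choices, array weights, a threshold of 0.1 and leaving out each array.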

Additional observations from a re-analysis of the deposited data

How the results depend on the processing

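Across 14 alternatives no factor passed the limma threshold (lowest adjusted p 0.521). The replicate block, other moderation, the filter for dim genes and the fit of all probe sets reuse the same group means. Their differences could not change, and with them counted 132 of 136 recomputed differences kept their sign. The exceptions were Pax9 with the mean of its probe sets (0.11) and Foxc2 without double knockout replicate 1, single knockout replicate 2 or single knockout replicate 3 (0.029, 0.021 and 0.034), whose range when 1 array was left out was -0.084 to 0.034. The count of lower factors was 6 of 6 with dim genes left out, because 4 were not tested, and 9 to 10 when 1 array was left out. The median of the factors ran from -0.63 to -0.10 when 1 array was left out, the highest being without double knockout replicate 1, and was -0.20 with array weights. The number of genes past the threshold was 0 to 1 when 1 array was left out, 0 with the mean of probe sets (the cause was not tested) and 2 probe sets, both of Fzd2, when all 34945 probe sets were tested. Deviations of same-numbered arrays from their group means correlated at 0.094, -0.037 and -0.13. These correlations run over all genes and cannot decide whether same-numbered arrays shared a litter or batch. The labels state no pairing, so the main fit did not pair arrays. Replicate 1 was the lowest single knockout array for 10 of 10 factors (40.4% of all genes). In the double knockout, it was the lowest of all 6 arrays for 8 of 10 (29.7% of all genes). With the replicate number as a block, 1 gene passed, and Meox1 and Myf5 had an adjusted p of 0.521. Without double knockout replicate 1 the list medians were 0.0062 for dorsal neural tube and neural crest, 0.042 for endothelial, -0.056 for intermediate mesoderm, 0.080 for cardiac and lateral mesoderm, -0.13 for visceral endoderm and -0.078 for placental and decidual genes, each on the other side of 0 from the value with all arrays; the cause was not tested. The number of arrays and the dimness of Myf5, Meox2, Pax1 and Pax9 limit these results.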
